A study of Mus musculus with 14 samples.

Results

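The S100 genes described here are 9 of the 49315 genes in the deposited table of counts, chosen by their gene symbols: S100a1, S100a4, S100a6, S100a8, S100a9, S100a10, S100a11, S100a13 and S100b. All 9 held enough reads to be tested, among 15292 tested genes. RNA came from the left ventricle of mice, taken 5 weeks after surgery that was performed at an age of 10 to 12 weeks. WT animals carried the unaltered pacemaker channel gene Hcn4, and HCN4F animals carried a germline knock-in that replaces a tyrosine of the HCN4 protein by phenylalanine in every cell of the body. Each genotype underwent either Sham surgery or transverse aortic constriction (TAC), which narrows the aorta and puts the left ventricle under pressure overload. There were 4 libraries each of WT-Sham, HCN4F-Sham and HCN4F-TAC hearts, described as biological replicates. WT-TAC hearts gave 2 (its replicates 2 and 3), and the other WT-TAC samples of the 16 described for the study were not analysed here. A count per gene does not show the amino acid exchange, so the genotype labels were not checked with these data. A member is called here where the adjusted p-value of edgeR's quasi-likelihood test was under 0.05 and the log2 fold change above 1 or below -1, the limits the study used.

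S100 proteins are small EF-hand proteins that bind calcium and then attach to a target protein, mostly as dimers. S100a1 is the cardiomyocyte member and acts on the calcium release channel, the calcium pump and titin. S100a8 and S100a9 form calprotectin, which neutrophils and monocytes carry in bulk and release as an alarm signal that binds TLR4 and RAGE (Ager). S100b is made by glia, including the Schwann cells along cardiac nerves, and also by adipocytes. S100a4, S100a6, S100a10, S100a11 and S100a13 are made by many cell types, and S100a10 and S100a11 bind annexins at membranes.

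Libraries held 22309914 to 35210939 counted reads (median 27676182). Levels are given as CPM, the reads of a gene relative to the library total, scaled with TMM. The upper limit that a count of 0 leaves, 3 reads, came to 0.0859 to 0.137 CPM, with counting error alone considered. The labelled tissue was checked with 9 ventricular cardiomyocyte markers, whose summed level was 85054 to 88231 CPM in WT-Sham, 79479 to 79928 in WT-TAC, 73810 to 82016 in HCN4F-Sham and 67612 to 73497 in HCN4F-TAC, lower after TAC in each genotype without overlap. Mitochondrial genes took 19.6 to 23.1% of reads in WT-Sham, 18.4 to 20.03% in WT-TAC, 17.1 to 21.4% in HCN4F-Sham and 13.9 to 18.6% in HCN4F-TAC, and the part of either in the members' values was not tested. The 6 atrial markers summed to 6.96 to 59.1 CPM, with the highest in HCN4F-TAC replicate 2. Short genes had lower levels in most TAC libraries than in the Sham libraries. The median level of 861 tested genes with under 1000 exon bases, relative to that of 7990 genes with over 4000, was -0.06 to 0.26 on the log2 scale in the Sham libraries and -0.16 to -0.05 in the TAC libraries, ranges that overlap through HCN4F-Sham replicate 3 alone. 6 of the 9 members have under 1000 exon bases. HCN4F-Sham replicate 3 and HCN4F-TAC replicate 3, each the lowest of its group on this measure, were each also the lowest of their group for 7 of the 9 members.

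8 of the 9 genes lie on mouse chromosome 3 and S100b lies on chromosome 10 (chr10:76253853-76261159, GRCm38, plus strand). S100a1, S100a13, S100a4, S100a6, S100a8 and S100a9 sit within 184688 bases (chr3:90511034-90695721), and S100a11 (chr3:93520488-93526287) and S100a10 (chr3:93555080-93564643) lie further along. S100a1 (minus strand) and S100a13 (plus strand) start beside each other and point apart, with no shared exon bases. S100a4 shares 302 of its 584 exon bases (51.7%) with the annotated gene Gm42674 on the same strand. Gm42674 was listed at 0 reads in the 14 libraries, and how reads in shared bases were counted is not given in the sources used here, so the level of S100a4 is uncertain.

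The promoters of the member pairs with the highest correlation of levels over the 14 libraries, S100a8 with S100a9 and S100a6 with S100a11, are shown so that the letters of genes that varied together can be compared. Each runs 5′ to 3′ on the gene's own strand from 250 bases before to 30 bases after the RefSeq start (GRCm38.p6). Positions are chr3:90668821-90669100 (plus strand) for S100a8, chr3:90695692-90695971 (minus strand) for S100a9, chr3:90612644-90612923 (plus strand) for S100a6 and chr3:93520246-93520525 (plus strand) for S100a11. Capitals mark matches to the motifs searched.
S100a8: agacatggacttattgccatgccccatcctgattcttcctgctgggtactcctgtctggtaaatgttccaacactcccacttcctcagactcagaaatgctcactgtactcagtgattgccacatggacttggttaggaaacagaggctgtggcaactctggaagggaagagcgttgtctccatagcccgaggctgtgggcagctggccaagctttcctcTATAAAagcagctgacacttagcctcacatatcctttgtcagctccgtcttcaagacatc
S100a9: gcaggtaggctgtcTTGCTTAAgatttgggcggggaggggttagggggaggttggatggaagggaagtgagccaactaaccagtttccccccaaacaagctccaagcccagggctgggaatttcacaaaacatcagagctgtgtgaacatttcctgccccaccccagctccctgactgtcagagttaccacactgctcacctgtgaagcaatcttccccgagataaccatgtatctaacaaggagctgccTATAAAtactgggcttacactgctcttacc
S100a6: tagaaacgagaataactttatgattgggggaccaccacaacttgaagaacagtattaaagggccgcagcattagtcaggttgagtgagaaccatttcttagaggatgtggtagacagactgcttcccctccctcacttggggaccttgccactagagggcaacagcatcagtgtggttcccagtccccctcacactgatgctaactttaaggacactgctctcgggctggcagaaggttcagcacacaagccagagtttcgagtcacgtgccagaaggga
S100a11: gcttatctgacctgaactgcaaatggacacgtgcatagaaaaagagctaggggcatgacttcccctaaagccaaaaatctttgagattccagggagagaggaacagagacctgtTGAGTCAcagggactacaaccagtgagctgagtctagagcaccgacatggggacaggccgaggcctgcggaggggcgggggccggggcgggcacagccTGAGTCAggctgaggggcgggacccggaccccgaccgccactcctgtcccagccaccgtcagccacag
A TATA box (TATAAA) begins 30 bases before the start of S100a8, and another begins at the annotated start of S100a9. S100a9 holds a C/EBP motif (TTGCNNAA) that begins 236 bases before its start. S100a11 holds AP-1 motifs (TGANTCA) that begin 136 and 38 bases before its start. S100a6 holds none of the motifs, and none of the matches overlap each other. A window was found in RefSeq for 8 of the 9 members, S100a10 being the exception, and both strands were searched. TATAAA occurred in 3 of the 8 (S100a4, S100a8 and S100a9), TTGCNNAA in 1, TGANTCA in 1 and the TEAD motif CATTCC in 0. Of 32851 mouse promoter windows of the same 280 bases, 13.1% held TATAAA, 10.4% TTGCNNAA, 7.46% TGANTCA and 13.9% CATTCC. These matches describe the letters only.

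S100a1 was by far the most abundant member in every group when levels were divided by exon length. In WT-Sham libraries S100a1 stood at 697 ± 41.1 CPM per kb of exon (SD, n = 4). S100a11 followed at 38.9 ± 4.47 CPM per kb, S100a10 at 17.4 to 24.8 CPM per kb, S100a13 at 19.0 ± 1.80 and S100a6 at 9.40 ± 0.805. The remaining members were rare, with S100a4 at 1.39, S100b at 0.469, S100a9 at 0.218 and S100a8 at 0.127 CPM per kb. The libraries of S100a10 and S100a13 overlapped, as did those of S100b and S100a9 and of S100a9 and S100a8, so these neighbours are not ordered beyond their spread. The first 5 places went to the same genes in all 4 groups. The order of the rare genes differed, with S100b last in both TAC groups (0.309 CPM per kb in WT-TAC and 0.306 in HCN4F-TAC) and S100a8 last in both Sham groups. In HCN4F-Sham, S100a4, S100a9, S100b and S100a8 each overlapped the next in order, so S100a8 and S100b are not ordered there beyond their spread.

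**Figure D1:**
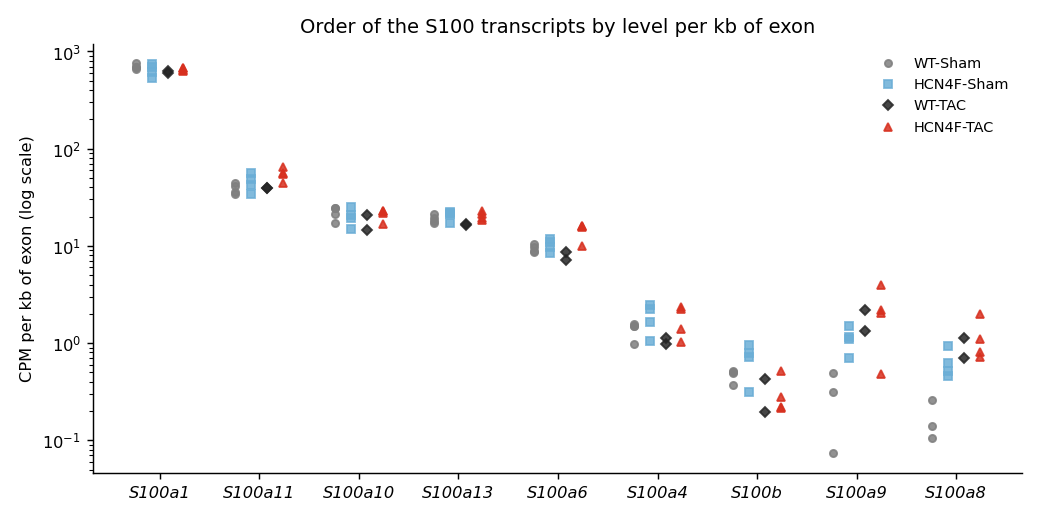
Each point is 1 library, placed by the level of the gene in CPM per kb of exon on a log axis, with the genes in the order of their WT-Sham mean and the 4 groups side by side. S100a1 lies at 531 to 752 CPM per kb, S100a11, S100a10, S100a13 and S100a6 lie between 7.16 and 64.8, and the 1 WT-Sham library each in which S100a8 and S100a9 had 0 reads cannot be drawn on this axis.

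TAC was first compared with Sham in WT hearts, which lack the knock-in. The calprotectin genes rose: S100a8 was 6.64-fold and S100a9 7.49-fold higher in WT-TAC than in WT-Sham, and these were the 2 of 9 members called, where 0.706% of all tested genes were called. The other 7 did not pass the test. The median log2 fold change over the 9 members was -0.20, beside -0.02 for all tested genes.

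S100a8 was counted at 2, 5, 0 and 3 reads in WT-Sham replicates 1 to 4, which is 0.0739, 0.181, 0 and 0.098 CPM. The WT-TAC libraries held 19 and 17 reads, or 0.780 and 0.487 CPM. The groups did not overlap, and the fitted log2 fold change was 2.73 (SE 0.62, 95% interval 1.43 to 4.03, adjusted p = 0.0248). S100a9, the calprotectin partner, was counted at 0, 7, 1 and 5 reads in WT-Sham (0, 0.254, 0.0382 and 0.163 CPM). In WT-TAC it was counted at 28 and 24 reads (1.15 and 0.687 CPM). Again both TAC libraries exceeded every Sham library, with a log2 fold change of 2.91 (SE 0.75, 95% interval 1.31 to 4.50, adjusted p = 0.0409). Both genes passed the filter on low counts, which asks for about 0.361 CPM in at least 2 libraries, only through the groups other than WT-Sham, so a rise over WT-Sham is what their selection favours and nothing is read from the share of all genes called. With no filter S100a8 was still called (adjusted p = 0.000499) and S100a9 was not (adjusted p = 0.0871). The calls were fragile. Leaving out 1 library gave a log2 fold change of 2.36 to 3.29 for S100a8 and of 2.51 to 3.58 for S100a9, the highest for both without WT-Sham replicate 2. Neither call was kept without WT-Sham replicate 1 or 4 or without either WT-TAC library, and that of S100a9 was also lost without WT-Sham replicate 3. Over all omissions of 1 library the adjusted p ranged from 0.0284 to 0.155 for S100a8 and from 0.0454 to 0.213 for S100a9, and over all alternatives from 0.000499 to 0.155 and from 0.00228 to 0.213. With the replicate number as a block both calls were lost (log2 fold changes of 2.64 and 2.67, adjusted p = 0.0751 and 0.115).

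Lcn2, Hdc and Csf3r made up most of the neutrophil list's sum, with 13 to 52 reads in each WT-Sham library. Of 13 markers, 6 held enough reads for a test and 0 were called by edgeR or DESeq2 in WT hearts, with 2 at an unadjusted p under 0.05 by edgeR (22% of all tested genes) and 2 that DESeq2 gave no adjusted p. The fitted level was higher in WT-TAC for each of the 6, with a median log2 fold change of 0.57, beside -0.02 for all tested genes. The summed level of the 13 was 3.33 to 5.11 CPM in WT-Sham and 5.12 to 6.37 CPM in WT-TAC. Ly6g, the defining surface marker, had 0 reads in every library, and the granule genes Mpo and Elane had at most 1 read in any library. Retnlg, a neutrophil secreted factor, had 0 reads in the 4 WT-Sham libraries and 5 and 6 in WT-TAC (adjusted p = 0.0661). Cxcr2 had 0 to 3 reads in WT-Sham and 7 and 8 in WT-TAC (adjusted p = 0.101). Neither gene reached the minimum of the filter in a WT library. Of the untested markers, Mmp8 had a higher mean in WT-TAC and Ngp, Camp and Ltf lower ones, all from 8 reads or fewer per library. The 10 monocyte and macrophage markers summed to 164 to 201 CPM in WT-Sham and 163 to 176 CPM in WT-TAC. The part of either cell type in the rise of S100a8 and S100a9 was not tested. In whole tissue, more cells of a type and more RNA per cell cannot be told apart, and the same holds for every fall.

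S100a1 levels in WT hearts were 522, 453, 478 and 483 CPM after Sham and 417 and 440 CPM after TAC. Both TAC libraries were below all Sham libraries, but the log2 fold change of -0.18 (SE 0.11, 95% interval -0.41 to 0.06) did not pass (adjusted p = 0.369). S100a13, which takes part in the non-classical export of FGF1, showed the same picture, with 12.4 to 15.3 CPM after Sham, 12.1 and 11.6 CPM after TAC and a log2 fold change of -0.20 (SE 0.12, adjusted p = 0.361). Counting all members, 4 of 9 did not overlap between the groups, where 39.2% of all tested genes did not. The 861 short genes had a median log2 fold change of -0.22 in this comparison and the 7990 long genes 0.05. The part of gene length in the members' values was not tested.

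The other members had intervals that included 0. S100a11 gave a log2 fold change of 0.02 (95% interval -0.33 to 0.38), S100a6 -0.25 (-0.63 to 0.14), S100a10 -0.34 (-0.76 to 0.09), S100a4 -0.41 (-1.24 to 0.42) and S100b -0.54 (-1.49 to 0.41). Counts of S100b and S100a4 were 7 to 27 reads per library in these groups.

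**Figure D2:**
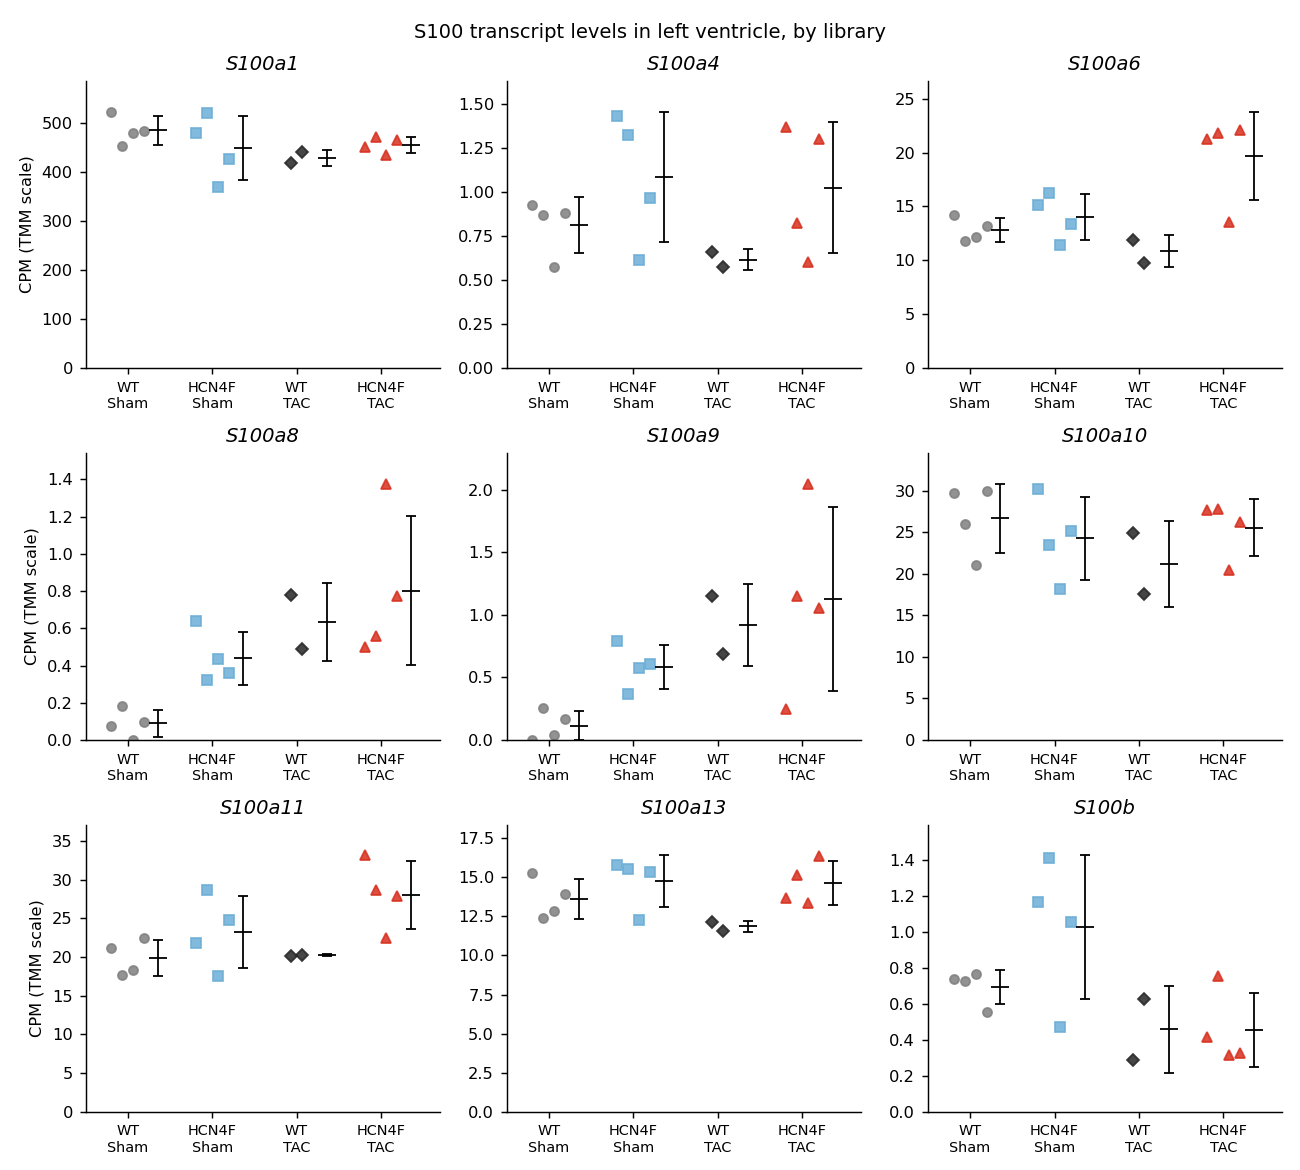
Each panel shows 1 gene, with 1 point per library on the TMM scale of CPM, the 4 groups on the horizontal axis and, beside each group, a bar at the mean with 1 SD (n = 4, and n = 2 in WT-TAC). S100a8 and S100a9 are lowest on average in WT-Sham, with S100a9 in HCN4F-TAC replicate 1 (0.249 CPM) just under the highest WT-Sham library (0.254 CPM), and S100a6 is near 22 CPM in 3 of the 4 HCN4F-TAC libraries.

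TAC was next compared with Sham in HCN4F hearts. S100b fell to 0.455 of its Sham level and was the 1 member of 9 called, where 2.75% of all tested genes were called. S100a6 rose 1.41-fold and passed the adjusted p but not the limit on the fold change. The median log2 fold change of the 9 members was 0.07, beside -0.01 over all tested genes. Libraries of the 2 groups overlapped for each of the 9 members, where 15.1% of all tested genes did not overlap.

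S100b was counted at 31, 31, 13 and 35 reads in HCN4F-Sham replicates 1 to 4, which is 1.17, 1.41, 0.470 and 1.06 CPM. In HCN4F-TAC it was counted at 10, 23, 9 and 8 reads (0.415, 0.757, 0.318 and 0.325 CPM). The groups overlapped through HCN4F-Sham replicate 3, a low library, and HCN4F-TAC replicate 2. The log2 fold change was -1.13 (SE 0.36, 95% interval -1.89 to -0.38, adjusted p = 0.0433). Without HCN4F-Sham replicate 3 it was -1.38 (adjusted p = 0.0106). The call was lost without any of HCN4F-Sham replicates 1, 2 or 4 and HCN4F-TAC replicates 1, 3 or 4, and over all omissions the adjusted p ranged from 0.0106 to 0.116. It was also lost with only the compared groups in the fit, by edgeR (adjusted p = 0.0835) and by DESeq2 (adjusted p = 0.0597), and with the replicate number as a block (adjusted p = 0.0554), with log2 fold changes of -1.15 in each.

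Schwann cell and nerve genes fell in the same comparison. Of 10 such markers, 6 were called lower in HCN4F-TAC than in HCN4F-Sham, where 1.16% of all tested genes were called lower, and the median of the 10 was -1.06. Sox10, the transcription factor of the glial lineage, fell by 1.05 on the log2 scale (adjusted p = 0.0132). Mbp, Gfra3, Kcna1 and Foxd3 were also called. The summed level of the list was 27.0 to 39.9 CPM in HCN4F-Sham and 16.0 to 21.7 CPM in HCN4F-TAC, with no overlap. In WT hearts it was 24.3 to 28.5 CPM after Sham and 19.8 and 20.8 CPM after TAC. There 0 of the 10 were called by edgeR and 2 had an unadjusted p under 0.05 (22% of all tested genes). DESeq2 called 1 and gave 1 no adjusted p. Of 5 adipocyte markers, the other known source of S100b, the sums were 0.685 to 2.53 CPM after Sham and 0 to 0.389 CPM after TAC. Of these, 2 were tested and called lower (Cfd and Car3), but of the libraries compared only HCN4F-Sham ones reached the minimum of the filter for them, so a fall is what their selection favours. The share of either cell type in the fall of S100b was not tested.

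S100a6, a growth-associated member found in fibroblasts, smooth muscle and stressed cardiomyocytes, was at 15.1, 16.2, 11.4 and 13.4 CPM in HCN4F-Sham. In HCN4F-TAC it was at 21.3, 21.8, 13.6 and 22.1 CPM. All TAC libraries but replicate 3 were above every Sham library. The log2 fold change was 0.49 (SE 0.14, 95% interval 0.19 to 0.79, adjusted p = 0.0316), and 7.2% of all tested genes passed this adjusted p and were higher. Without HCN4F-TAC replicate 3 it was 0.63 (adjusted p = 0.00122). Without HCN4F-Sham replicate 3 or 4 or HCN4F-TAC replicate 1, 2 or 4 the adjusted p was 0.0769 to 0.0997. Among 9 fibroblast markers, Col1a1 and Postn were called higher (1.58% of all tested genes were) and 5 passed the adjusted p in that direction. Their sum was 1590, 1805, 1058 and 1666 CPM in HCN4F-TAC replicates 1 to 4, lowest in the library with the lowest S100a6, and 855 to 1096 CPM in HCN4F-Sham. The part of fibroblasts in the rise of S100a6 was not tested.

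S100a8 and S100a9 did not pass in HCN4F hearts. S100a8 was at 0.640, 0.320, 0.434 and 0.362 CPM after Sham and 0.498, 0.560, 1.38 and 0.773 CPM after TAC, a log2 fold change of 0.87 (SE 0.40, 95% interval 0.03 to 1.71, adjusted p = 0.164). S100a9 was at 0.790, 0.365, 0.578 and 0.604 CPM after Sham and 0.249, 1.15, 2.05 and 1.06 CPM after TAC (log2 fold change 0.95, SE 0.49, adjusted p = 0.229). HCN4F-TAC replicate 3 held the highest level of both genes and HCN4F-TAC replicate 1 the lowest of its group. Without HCN4F-TAC replicate 3 the log2 fold change was 0.46 for S100a8 (adjusted p = 0.465) and 0.49 for S100a9 (adjusted p = 0.544), and over all alternatives the adjusted p ranged from 0.112 to 0.465 and from 0.0592 to 0.544. S100a11, which acts at the membrane and in cell growth, gave 0.27 (SE 0.14, 95% interval -0.02 to 0.56, adjusted p = 0.202). S100a1, S100a4, S100a10 and S100a13 lay between -0.09 and 0.07 on the log2 scale. For S100a1 the 95% interval of the log2 fold change was -0.17 to 0.21. The short genes had a median of -0.17 here and the long genes 0.02.

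**Figure D3:**
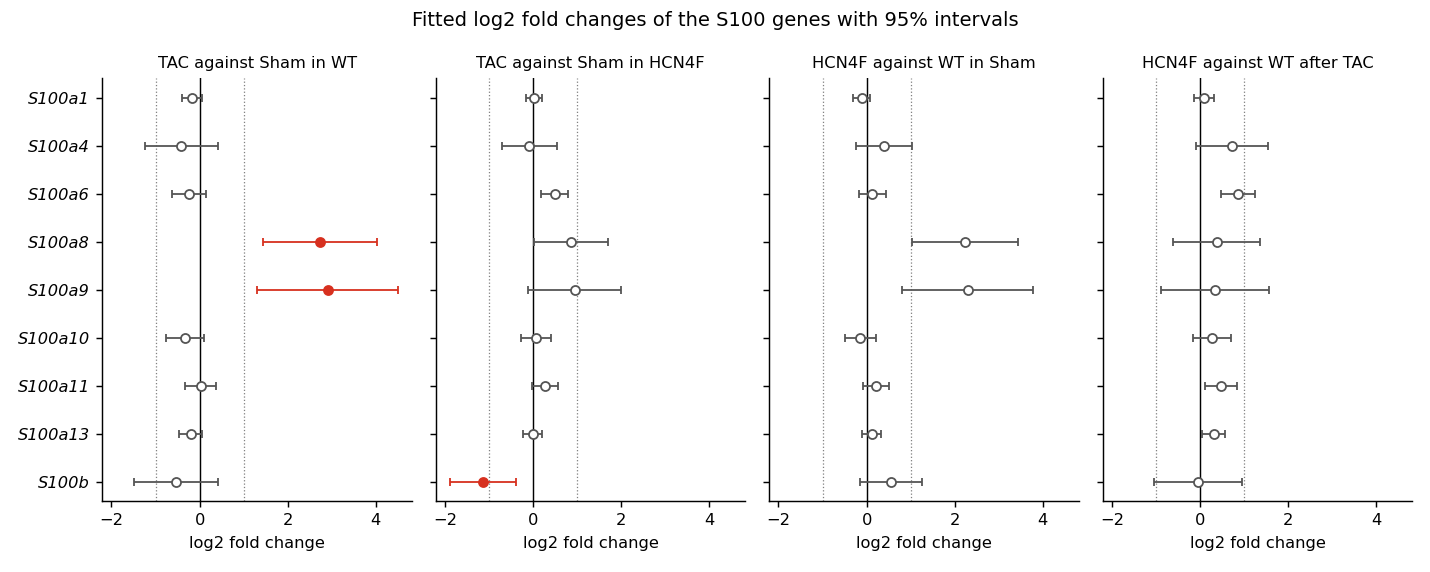
Each panel is 1 comparison and each point the fitted log2 fold change of 1 gene with its 95% interval. Filled red points are called, the solid line marks no change and the dotted lines mark -1 and 1. S100a8 and S100a9 stand at 2.73 and 2.91 in WT hearts and at 2.24 and 2.30 between the Sham groups, and S100b stands at -1.13 in HCN4F hearts.

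HCN4F-Sham was compared with WT-Sham, the groups without pressure overload. By edgeR 0 of 9 members were called, with 2 at an unadjusted p under 0.05 (15.2% of all tested genes) and 2 called by DESeq2, while 0.209% of all tested genes were called by edgeR. Those members were S100a8 and S100a9 in each case. S100a8 was 4.72-fold higher in HCN4F-Sham (log2 fold change 2.24, SE 0.57, 95% interval 1.04 to 3.44, adjusted p = 0.0863). Its counts of 7 to 17 reads per HCN4F-Sham library were all above the 0 to 5 reads of the WT-Sham libraries. S100a9 was 4.93-fold higher (log2 fold change 2.30, SE 0.70, 95% interval 0.81 to 3.79, adjusted p = 0.142), with 8 to 21 reads against 0 to 7. Leaving out 1 library gave a log2 fold change of 1.87 to 2.80 for S100a8 and of 1.91 to 2.98 for S100a9, highest for both without WT-Sham replicate 2. These were the 2 of 9 members without overlap, where 8.56% of all tested genes did not overlap. Both were tested only through groups other than WT-Sham. A level above WT-Sham is therefore what their selection favours, and nothing is read from these shares. The same 4 WT-Sham libraries are the baseline of the TAC comparison in WT hearts, so both results rest on the same few reads. With DESeq2 fitted on all groups the adjusted p was 0.0162 for S100a8 and 0.02 for S100a9, and over all alternatives it ranged from 0.0097 to 0.198 and from 0.00982 to 0.309.

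Of the 6 tested neutrophil markers, 0 were called by edgeR between the Sham groups and 1 was called by DESeq2. An unadjusted p under 0.05 by edgeR was held by 3 (15.2% of all tested genes). The fitted level was higher in HCN4F-Sham for each of the 6, of which Retnlg and Cxcr2 were tested only through groups other than WT-Sham. Of the untested markers, Mmp8 and Ltf had higher means in HCN4F-Sham (0.114 and 0.0921 CPM) than in WT-Sham (0.0355 and 0.0709 CPM), and Ngp and Camp lower ones (0.0284 and 0.0256 CPM, against 0.0716 and 0.035 CPM), all from 7 reads or fewer per library. The summed level of all 13 listed was 4.71 to 6.98 CPM in HCN4F-Sham, overlapping the WT-Sham range of 3.33 to 5.11 CPM, and its part in the difference was not tested. The other 7 members lay between -0.14 (S100a10) and 0.55 (S100b) on the log2 scale, with adjusted p of 0.456 or more.

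After TAC, HCN4F hearts were compared with WT hearts. By edgeR 0 of 9 members were called, with 3 at an unadjusted p under 0.05 (12.5% of all tested genes) and 0 called by DESeq2, where 0.0719% of all tested genes were called. S100a6 had the largest log2 difference of the 9. It was at 21.3, 21.8, 13.6 and 22.1 CPM in HCN4F-TAC and 11.9 and 9.79 CPM in WT-TAC, so every HCN4F-TAC library was higher. The fitted difference was 1.82-fold (log2 fold change 0.86, SE 0.18, 95% interval 0.48 to 1.25, adjusted p = 0.0904). With DESeq2 on all groups it was 0.85 with an adjusted p of 0.00212, still under the limit on the fold change, and without HCN4F-TAC replicate 3 it was 1.01 with an adjusted p of 0.00103 by edgeR. Over all alternatives the adjusted p ranged from 0.00103 to 0.451.

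S100a11 was at 33.1, 28.6, 22.5 and 27.9 CPM in HCN4F-TAC and 20.1 and 20.3 CPM in WT-TAC, with a log2 fold change of 0.47 (SE 0.17, adjusted p = 0.264). S100a13 was at 13.7, 15.2, 13.4 and 16.4 CPM in HCN4F-TAC and 12.1 and 11.6 CPM in WT-TAC (log2 fold change 0.31, SE 0.12, adjusted p = 0.327). S100a6, S100a11 and S100a13 were the 3 of 9 members without overlap, where 22.2% of all tested genes did not overlap. S100a4 gave 0.72 (SE 0.39, 95% interval -0.10 to 1.55, adjusted p = 0.467). S100a8 differed by 0.38 (95% interval -0.61 to 1.36) and S100a9 by 0.34 (-0.89 to 1.57), intervals that hold both no difference and one above 2-fold. Without HCN4F-TAC replicate 3 these differences were -0.027 and -0.11. The short and long genes had medians of 0.02 and -0.02 here. The fibroblast markers summed to 829 and 992 CPM in WT-TAC, below the HCN4F-TAC range of 1058 to 1805 CPM, whose lowest value was that of replicate 3. The 10 monocyte and macrophage markers summed to 163 and 176 CPM in WT-TAC and to 213, 261, 169 and 264 CPM in HCN4F-TAC replicates 1 to 4, also lowest in replicate 3. By edgeR 0 of these 10 were called and 5 had an unadjusted p under 0.05 (12.5% of all tested genes), while DESeq2 called 1. Of the 9 fibroblast markers, 0 were called by edgeR, 8 had an unadjusted p under 0.05 and 1 was called by DESeq2. The part of either cell type in the difference in S100a6 was not tested.

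Whether the TAC response itself differed between genotypes was tested with the genotype by surgery interaction. By edgeR 0 of 9 members passed, with 3 at an unadjusted p under 0.05 (9.27% of all tested genes) and 0 passing with DESeq2, which gave S100a8 no adjusted p, and 0% of all tested genes passed by edgeR. The response of S100a6 was higher in HCN4F hearts by 0.74 on the log2 scale (SE 0.23, 95% interval 0.25 to 1.23, adjusted p = 0.439). Without HCN4F-TAC replicate 3 it was 0.88 with an adjusted p of 0.0369, and over all alternatives the adjusted p ranged from 0.0369 to 0.676. For S100a8 the fitted difference in response was -1.86 (SE 0.75, 95% interval -3.44 to -0.29, adjusted p = 0.487). For S100a9 it was -1.96 (SE 0.92, 95% interval -3.91 to -0.0047, adjusted p = 0.537). Neither passed, so their responses were not shown to differ. Both differences rest on WT-Sham counts of 0 to 5 and 0 to 7 reads. After TAC the means in WT and HCN4F hearts were 0.634 and 0.802 CPM for S100a8 and 0.919 and 1.13 CPM for S100a9. For S100b the difference was -0.60 (95% interval -1.82 to 0.63), so a fall called in HCN4F hearts alone was not shown to differ from that in WT hearts. The comparisons above share their control libraries, and their values are given side by side only.

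**Figure D4:**
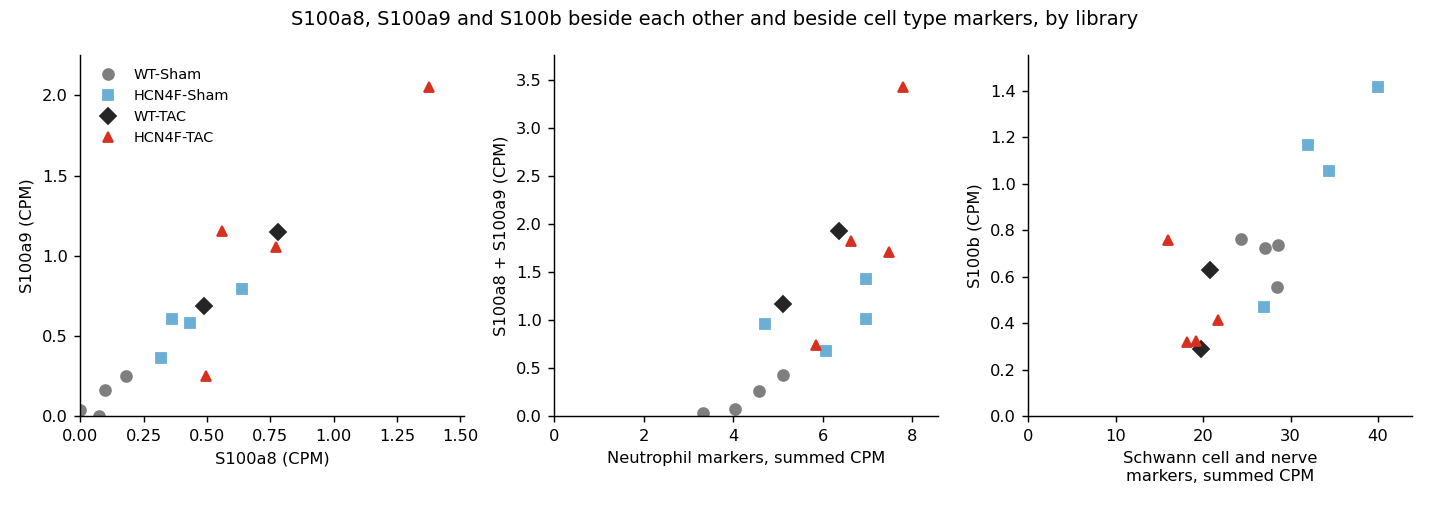
Each point is 1 library in all 3 panels, which plot S100a9 against S100a8, the sum of both against the summed level of 13 neutrophil markers, and S100b against the summed level of 10 Schwann cell and nerve markers, all in CPM on the TMM scale. WT-Sham libraries lie at the lower left of the first 2 panels, HCN4F-TAC replicate 3 at the upper right, and in the third panel the TAC libraries lie at 16.0 to 21.7 CPM of the markers.

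S100a8 and S100a9 ran together across libraries, with a Pearson r of 0.92 over 14 libraries for log2 CPM and 0.73 after the group means were taken out. S100a6 and S100a11 had the next highest r over the 14 libraries (0.86, and 0.76 within groups). Within groups the order was another, with S100a4 and S100a6 highest (0.80). The lowest value over the 14 libraries was that of S100a1 and S100a9 (-0.49, and -0.32 within groups), and the lowest within groups that of S100a9 and S100a11 (-0.54, against 0.21 over the 14). The points of each pair share their library, its depth and its preference for short or long genes, so these values are descriptions.

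Among 12559 tested genes with a mean of at least 1 CPM, those most like each member over the 14 libraries by Pearson r were taken as a description. For S100a8 these were Myc (0.93) and Vamp7 (0.92), and for S100a9 Esrrb (0.88) and Tada1 (0.86). S100a6 ran closest to Slc16a3, a lactate carrier (0.95), and Olfml3 (0.95), and S100a11 to Tagln2 (0.94) and Agpat4 (0.94). S100a1 ran closest to Nop10 (0.92) and Pgam2, a muscle enzyme of glycolysis (0.91). S100a13 ran closest to Tbca (0.91) and Csad (0.88), S100a10 to Rbp7 (0.86) and Palm (0.84), S100a4 to the ribosomal genes Rpl39 (0.89) and Rps27l (0.85) and S100b to Snhg8 (0.88) and Lamtor4 (0.85). Of the 17 of these with a known exon length, 13 were shorter than the median of that pool, 4498 bases.

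The partners of the S100 proteins were described from lists. Of 10 tested annexins and S100A10 complex partners (11 listed), 5 passed the adjusted p and were higher in HCN4F-TAC than in HCN4F-Sham (7.2% of all tested genes did), with a median of 0.33 for the list. By edgeR and DESeq2 0 were called, and 6 had an unadjusted p under 0.05 by edgeR (28.3% of all tested genes). Anxa4, a calcium-dependent membrane binder, rose from a mean of 16.9 ± 1.03 to one of 22.9 ± 2.59 CPM (SD, n = 4). Its log2 fold change was 0.44 (SE 0.08, adjusted p = 0.00278). In WT hearts 0 of the 10 passed the adjusted p by edgeR (4.54% of all tested genes did) and 0 were called by DESeq2. An unadjusted p under 0.05 by edgeR was held by 1 (22% of all tested genes). The main S100A10 partner, Anxa2, which the naming rule did not select, was at 60.7 ± 11.2 CPM in HCN4F-Sham and 80.0 ± 16.6 CPM in HCN4F-TAC (adjusted p = 0.12).

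Among 8 tested receptors and adaptors for S100 proteins outside the cell (10 listed), Tlr4, a receptor of calprotectin, rose in HCN4F hearts from 8.61 ± 1.79 to 18.3 ± 4.05 CPM and was the 1 gene called (log2 fold change 1.08, SE 0.15, adjusted p = 0.000324). In this comparison 2.75% of all tested genes were called, and 1.58% were called higher. In WT hearts Tlr4 was at 9.59 ± 0.854 CPM after Sham and 16.1 ± 0.527 CPM after TAC (SD, n = 4 and n = 2). Its log2 fold change there was 0.74 (SE 0.18, adjusted p = 0.0325), under the limit on the fold change, and the interaction was 0.34 (adjusted p = 0.688). Ager, the gene of RAGE, had 2 to 10 reads per library and was not tested. Of 13 intracellular targets and partners, all tested, 0 were called by edgeR or DESeq2 in HCN4F hearts. An unadjusted p under 0.05 was held by 7 (28.3% of all tested genes). Capza1, an actin capping protein gene, was the 1 that passed the adjusted p (log2 fold change 0.45, SE 0.08, adjusted p = 0.00199). Of all tested genes, 7.2% passed it and were higher. Of the targets of S100a1, Ryr2 was at -0.26 in HCN4F hearts (adjusted p = 0.146) and at 0.29 in WT hearts (adjusted p = 0.229), and Atp2a2 at -0.17 (adjusted p = 0.474) and 0.41 (adjusted p = 0.18). Their interactions were -0.54 (adjusted p = 0.439) and -0.58 (adjusted p = 0.479). Ttn, the titin gene, was at -0.36 in HCN4F hearts (adjusted p = 0.302) and -0.22 in WT hearts (adjusted p = 0.672), so these genes did not pass in any of these comparisons.

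Of 9 further S100 family genes listed, 1 was tested. S100a16 was at 36.7 ± 2.80 CPM in WT-Sham, 37.9 ± 4.59 in HCN4F-Sham, 34.1 ± 1.41 in WT-TAC and 37.2 ± 3.73 in HCN4F-TAC, and its log2 fold changes lay between -0.10 and 0.12 in the 5 comparisons. S100a2, S100a5, S100g and S100z had 0 reads in the 14 libraries. S100a3, S100a7a and S100a14 had at most 9 reads in any library, and S100a7l2 was not analysed here.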

How the data were processed

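RNA from left ventricular tissue was sequenced on an Illumina platform after polyA selection. The authors deposited raw read counts for each gene and library, without normalization. The genome build was GRCm38 per the submitters' processing notes. The aligner, counting program, annotation and use of strand are not given in the sources used here. Groups and replicate numbers came from the sample labels. A further 2 sample columns, whose names begin as those of WT-TAC do, matched no sample label given here and were not used, which leaves WT-TAC at 2 libraries. The labels do not say which animals shared a litter or sequencing run, so no batch could be examined. The sample titles carry serial numbers whose meaning is not given. Among the libraries used, the numbers of WT-Sham, WT-TAC and HCN4F lie in separate ranges. Whatever the numbers follow cannot be told apart from genotype, or from surgery in WT hearts.

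Counts were filtered with filterByExpr by group, scaled with TMM and fitted with edgeR 4.0.16 (R 4.3.3), with 1 mean per group and robust quasi-likelihood tests. P-values were adjusted by Benjamini-Hochberg over the 15292 tested genes. Interaction calls used the adjusted p alone. CPM on the TMM scale carry no prior count, while log2 CPM for correlations used a prior count of 2. The lone spread estimate over the groups also serves WT-TAC (n = 2). Exon lengths were unions of exons in GENCODE mouse release M21, which held 99.3% of the gene IDs, and promoter windows came from RefSeq. Alternatives were DESeq2 1.42.0 (the study's tool) on all or on the compared groups, edgeR on the latter, size factors from DESeq2 in edgeR, testing every gene, testing genes with a mean CPM of 1 or more, the replicate number as a block, the adjusted p alone and each library left out. Steps were tested on simulated data. The members and lists were chosen with earlier results of these data known. Named beyond the members were, per list of partners, the genes called in any comparison or else the tested gene with the smallest p in HCN4F hearts, and the 2 genes most like each member. Anxa2, Ager, Ryr2, Atp2a2, Ttn, the other S100 genes and single marker genes were named after their values were seen. No library looked like a copy of another, since the chi-square per gene between replicates was 6.22 to 61.8 over 19 pairs. Figures were drawn with matplotlib 3.10.9.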

Additional observations from a re-analysis of the deposited data

Results flagged for a closer look

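Of 27 groups of 4 libraries examined (9 members in 3 groups), 3 held a library far from the others, where chance alone gives about 1 in 20. S100a4 was at 0.574 CPM in WT-Sham replicate 3, below the 0.871 to 0.924 CPM of the other WT-Sham libraries. S100a6 was at 13.6 CPM in HCN4F-TAC replicate 3, below the 21.3 to 22.1 CPM of the other HCN4F-TAC libraries. S100a13 was at 12.3 CPM in HCN4F-Sham replicate 3, below the 15.4 to 15.8 CPM of the other HCN4F-Sham libraries.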

How the results depend on the processing

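Of 647 recalculated fold changes of single members, 598 kept their direction and their side of the threshold. In WT hearts the 2 calls became 1 with no filter (S100a8), 1 with DESeq2 on all groups (S100a9) and 0 with DESeq2 on the compared groups, where DESeq2 gave S100a8, or both genes, no adjusted p. They also became 0 when genes needed a mean CPM of 1 or more, which left 5 of the 9 members tested. The 1 call in HCN4F hearts became 0 with that filter and with edgeR or DESeq2 on the compared groups, and 2 with the adjusted p alone. Between the Sham groups 0 became 1 with no filter (S100a8), 2 with DESeq2 on all groups and 1 with DESeq2 on the compared groups (S100a9). With the replicate number as a block there were 0 calls in WT hearts and 0 in HCN4F hearts, and the block changed no other count. Same-numbered libraries correlated at -0.12 to 0.16 in their deviations from the group means, with 2 of 18 pairs over 0.1, so the numbers are not treated as pairs. When each library was left out in turn, the calls ranged from 0 to 2 in WT hearts, from 0 to 1 in HCN4F hearts, from 0 to 1 between the TAC groups and from 0 to 1 for the interaction. S100a13 in HCN4F hearts turned from -0.01 to 0.0040 with no filter. Leaving out 1 library also turned the sign of small log2 values, which then ranged in WT hearts from -0.031 to 0.088 for S100a11. In HCN4F hearts the range was -0.072 to 0.10 for S100a1, -0.052 to 0.20 for S100a10, -0.10 to 0.034 for S100a13 and -0.29 to 0.10 for S100a4. Between the TAC groups it was -0.027 to 0.72 for S100a8, -0.11 to 0.73 for S100a9 and -0.45 to 0.67 for S100b, and for the interaction of S100b -1.01 to 0.12. The cause of these changes was not tested. Counts of at most 58 reads per library limit S100a8, S100a9, S100a4 and S100b.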
